A study of Homo sapiens with 10 samples.

Results

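The response of HT29 cells to 48 hours of VXN was measured by RNA sequencing in 4 of the 10 libraries of the study, taken by their titles. HT29 is an established human colorectal cancer line of epithelial character. One group received the solvent DMSO and the other 10 µM of VXN, with 2 libraries each, which the series describes as biological replicates. What VXN stands for is not explained in the labels, and the series title places the work under drugs that alter dimethylation of histone H3 at lysine 9. The treatment field of the labels reads DMSO for all samples, so compound and replicate number come from the titles, and the 48 hours from that field. A second line, the transformed pluripotent t-hESC, received the same dose and its own DMSO, with 2 libraries each. Those groups were used to ask where the responses of the lines differ. A further 2 t-hESC libraries, given 1 µM of BIX for 48 hours, were in no tested comparison. All t-hESC libraries entered the same fit, where they also bear on the count filter, the scaling and the spread. All 60607 gene rows entered, of which 22482 had enough counts to be tested.

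HT29 carries mutations in APC and BRAF, so Wnt and ERK signalling run high. Cells sense damage, foreign nucleic acid, oxidants or misfolded protein through separate pathways, each of which ends on a transcription factor (interferon regulatory and STAT factors, NRF2, ATF4, ATF6 and XBP1) with its own set of target genes. Cell cycle genes are driven in large part by E2F factors and the MuvB complexes, so their transcripts fall in cells that leave the cycle. These roles are background to the lists used below.

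The 4 HT29 libraries held between 21133853 and 24487352 gene counts, so that a gene without a read could still stand at 0.124 to 0.152 CPM, by counting error alone (CPM are read counts relative to the scaled library size). Samples of a group correlated at 0.998 in log CPM across genes and samples of different groups at 0.881 to 0.882. Of 14 genes for colon epithelium 13 were tested. KRT8 and KRT18 (simple epithelial keratins), EPCAM, CDH1, LGALS4 and KRT20 were high in all 4 samples, the intestinal transcription factor gene CDX2 was low at 1.73 and 1.62 CPM under DMSO and 1.22 and 1.67 under VXN, and CDX1 was too low to test. Of the 11 immune markers 3 were tested, the pan-leukocyte gene PTPRC was not among them, and their sum went from 5.69 and 6.45 to 17.8 and 17.2 CPM. The 12 tested pluripotency markers summed to 13.6 and 12.002 CPM under DMSO and 12.7 and 16.2 CPM under VXN. RNA makeup differed between the groups: FTH1 and FTL together took 0.394 and 0.379% of gene counts under DMSO and 2.01 and 2.02% under VXN, the 2 mitochondrial ribosomal RNAs 0.268 and 0.277% against 1.95 and 1.96%, and the 100 most abundant genes 16.7 and 16.6% against 20.1 and 20.2%. All values below are relative to the total, and a change of total RNA per cell cannot be told apart from them.

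VXN changed most of the expressed genes of HT29. Interferon-stimulated genes, aldo-keto reductases and ferritins stood among the genes that rose, and the intestinal stem cell receptor gene LGR5 and the genes of DNA replication and mitosis among those that fell. Of 22482 genes tested with edgeR's quasi-likelihood test, 13477 (59.9%) were called at a Benjamini-Hochberg adjusted p under 0.05, 7418 higher (33.0%) and 6059 lower (27.0%). Changes of 2-fold or more numbered 2734 higher (12.2%) and 1669 lower (7.42%), and of 16-fold or more 231 higher and 58 lower. Genes that averaged 4 CPM or more gave 5247 higher and 4988 lower calls out of 12927. Of these calls, 9428 were in genes with a symbol and without overlap between the samples of the groups. Calls in genes without a symbol were left out of that count, and the share without overlap over all genes was not computed. The median log2 fold change was 0.054 over all tested genes and 0.016 at that level. Replicates differed little (the common biological coefficient of variation was 0.0207), so that small shifts of abundant genes pass the test, and p-values speak for the spread among these samples. The authors' deposited table for the same contrast holds 8216 called genes, of which 8170 were tested here, 8165 with a call of the same sign. In the other direction, 5233 of the genes called here had an adjusted p in that table and were not called there, and 79 had no adjusted p there. The plot of change against level sets the main groups out.

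**Figure D1:**
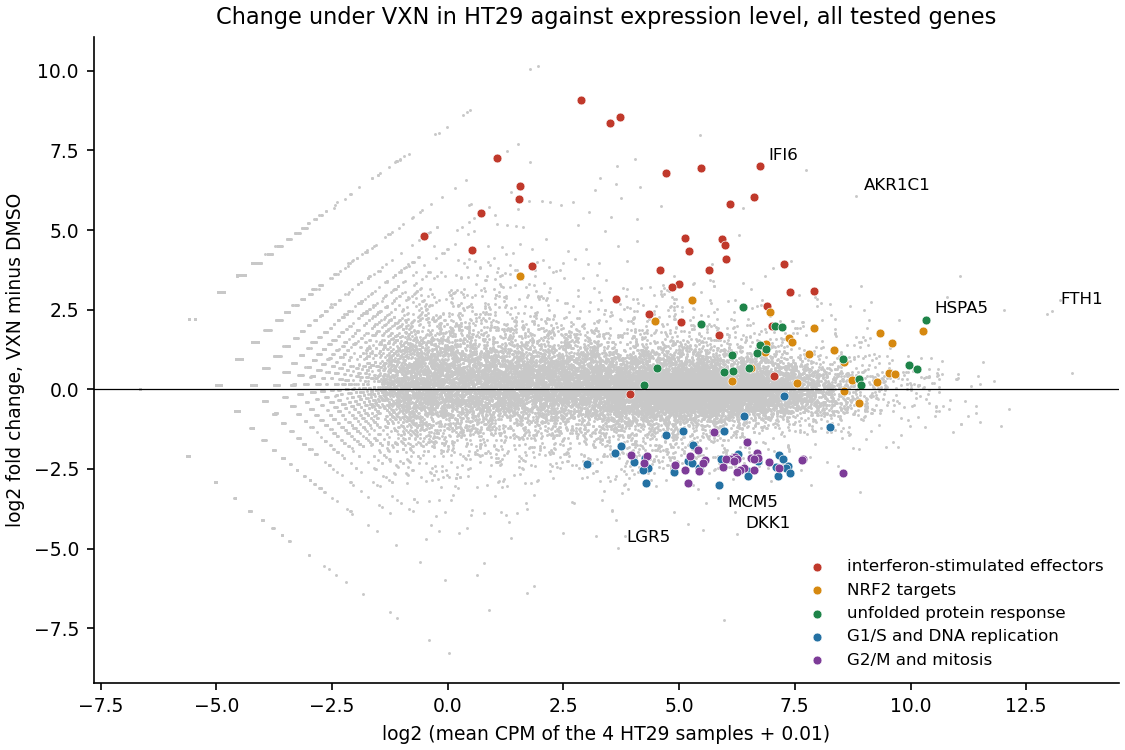
Each grey point is a tested gene, with its mean level over the 4 HT29 samples on the x axis (log2 CPM) and its log2 fold change, VXN minus DMSO, on the y axis. Coloured points are members of 5 gene lists: interferon-stimulated effectors lie up to 9.07 for RSAD2, and both cell cycle lists lie below 0 around medians of -2.28 and -2.21.

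The 15 genes with the highest log2 fold change among called genes of at least 4 CPM on average, without overlap between the groups, were led by interferon-stimulated genes. RSAD2, which encodes the antiviral enzyme viperin (chr2:6865885-6898239, GRCh38), had 0 and 1 counts under DMSO and 363 and 266 under VXN, a ratio of 704 with a 95% counting interval of 126 to 27853. The pro-apoptotic interferon target XAF1 (chr17:6755447-6775647) went from 0 and 3 to 595 and 522 counts, a ratio of 417 (142 to 2024). IFI44L counts were 0 and 3 against 542 and 427, and those of PRAL, a noncoding transcript, 2 and 1 against 516 and 460. In each of these 4 genes both VXN samples lay far above both DMSO samples, and the low DMSO counts make the intervals of the ratios wide.

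LAMP3, which encodes a lysosome-associated membrane protein, stood at 0.247 and 0.427 CPM in the DMSO samples and 88.8 and 85.8 CPM in the VXN samples, 255-fold higher. IFI6 (chr1:27666064-27672192) went from 1.77 and 1.54 to 213 and 213 CPM, a log2 fold change of 7.001 ± 0.083 (SE). The noncoding gene LINC02574 lies beside IFI6 (chr1:27660328-27662722) and rose from 0.165 and 0.256 to 33.4 and 31.8 CPM. NLRC5, the transactivator of HLA class I genes, went from 0.247 and 0.128 to 24.6 and 25.9 CPM, OAS2, an RNA-sensing synthetase, from 0.659 and 0.769 to 84.2 and 92.1 CPM, and MX2, an antiviral GTPase, from 0.453 and 0.47 to 51.2 and 53.3 CPM. The remaining genes of the 15 belong elsewhere: AKR1C2 and AKR1C1 (below), the fatty acid hydroxylase gene CYP4F11 at 0.206 and 0.171 against 19.3 and 19.3 CPM, KLHDC7B at 0.165 and 0.384 against 24.5 and 24.6 CPM and LINC01564 at 0.495 and 0.342 against 35.3 and 34.8 CPM. No edgeR adjusted p among the 15 exceeded 2.88e-34, for RSAD2.

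Among the 15 lowest, LGR5, the R-spondin receptor that marks intestinal stem cells (chr12:71439129-71586310), fell from 25.1 and 24.4 CPM under DMSO to 0.875 and 0.659 CPM under VXN, 31.7-fold lower. DKK1, a secreted Wnt antagonist and itself a Wnt target (chr10:52314281-52317657), fell from 147 and 143 to 5.86 and 6.69 CPM, and its neighbour PRKG1-AS1 (chr10:52296848-52314128) from 23.3 and 23.8 to 1.22 and 1.52 CPM. In these genes the groups stood apart by more than 15-fold, with replicate values close to each other.

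The proto-oncogene MYB went from 71.4 and 68.2 to 3.45 and 4.11 CPM, the epithelial NADPH oxidase gene NOX1 from 18.9 and 16.6 to 0.875 and 0.558 CPM and CLDN2, a claudin of leaky tight junctions, from 141 and 137 to 9.14 and 10.2 CPM. GABRP, a GABA receptor subunit gene, fell 21.5-fold, the endothelin gene EDN1 14.3-fold, the adrenergic receptor gene ADRA2A 24.1-fold and the surface glycoprotein gene CD200 22.7-fold. The bicarbonate cotransporter gene SLC4A4 fell 13.8-fold, LINC00261 14.2-fold, FAM111B 11.9-fold and C2orf72 11.8-fold. The edgeR adjusted p for these genes was at most 1.25e-28, for C2orf72. The plot of single samples shows how far the groups stood apart for genes of each kind.

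**Figure D2:**
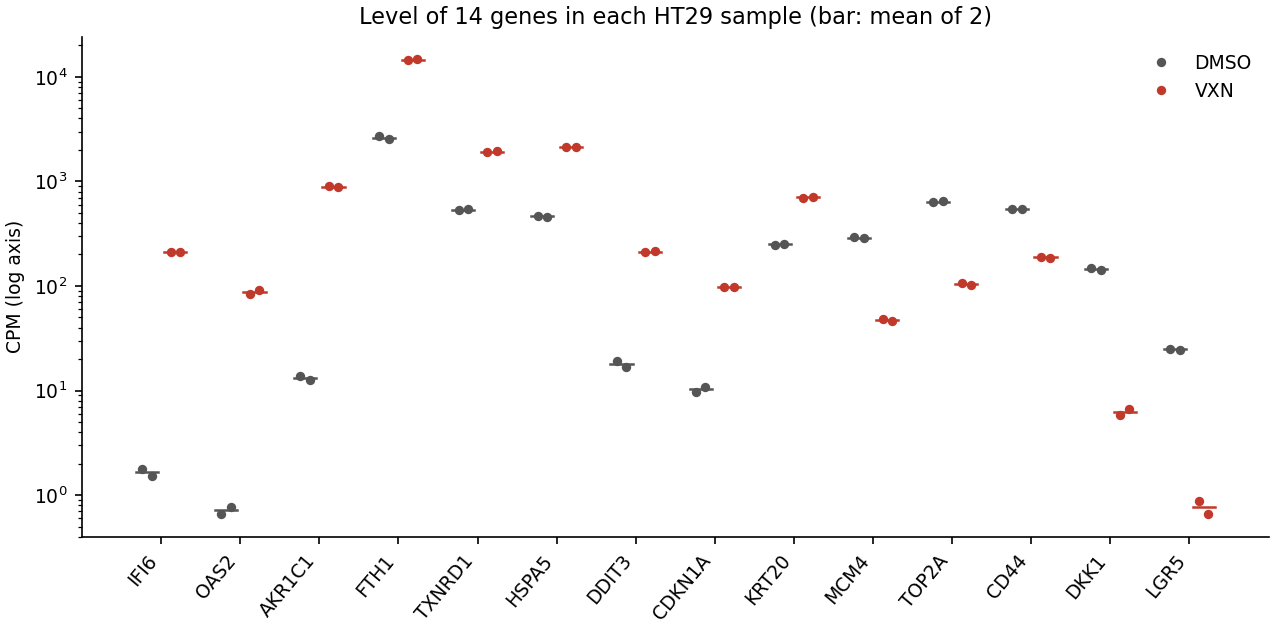
CPM of 14 genes in each HT29 sample on a log axis, with DMSO in grey and VXN in red and a bar at the mean of the 2 samples. The groups do not overlap in any of the 14 genes, from IFI6 at 1.65 against 213 CPM to LGR5 at 24.8 against 0.767 CPM.

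Transcripts were then read in 54 gene lists by function, each described by its counts of called members and its median. Over all tested genes 33.0% were called higher and 27.0% lower, at a median of 0.054. These shares depend on level. Of genes averaging under 1 CPM under DMSO, 1560 of 6798 were called higher and 315 lower. In the class with the highest level under DMSO, 253 of 648 were called higher and 349 lower. Of genes averaging 4 CPM or more, 5247 of 12927 were called higher and 4988 lower. A list of abundant genes can thus exceed 27.0% called lower by level alone. Lists were not compared with genes of matched level. The plot of list members gives the lists with at least 7 members of 4 CPM or more.

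**Figure D3:**
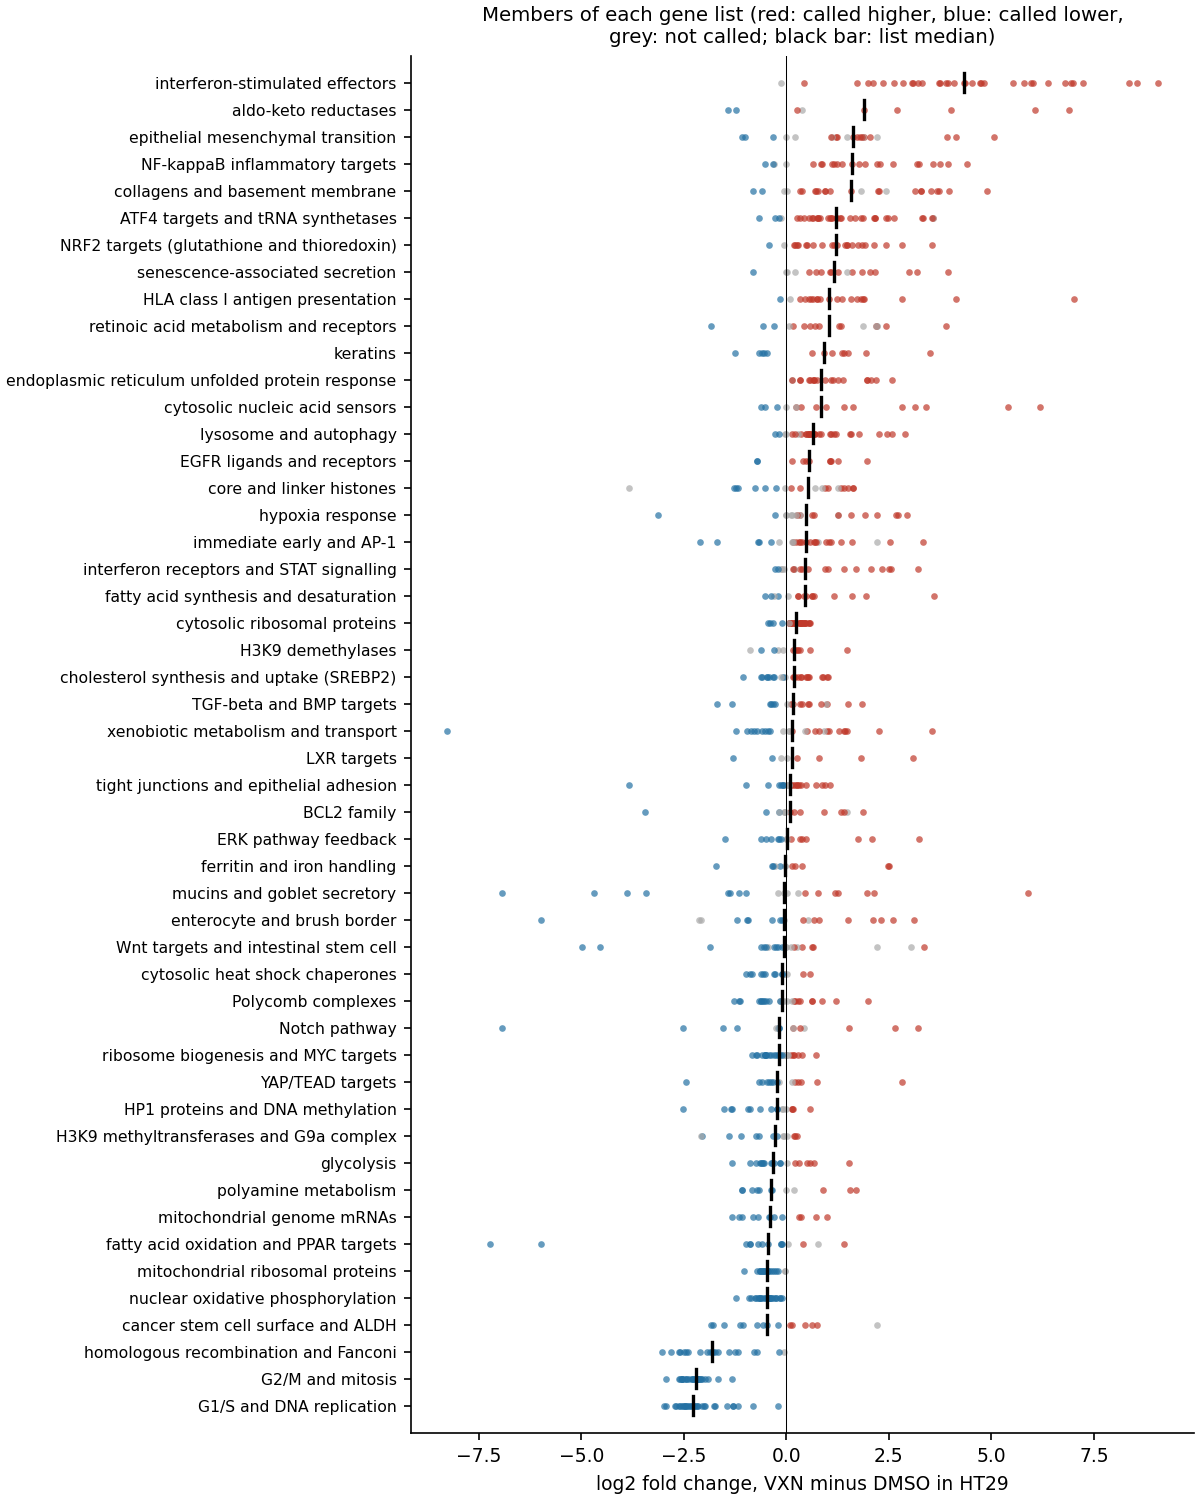
Each point is a list member at its log2 fold change in HT29 (x axis), red where called higher, blue where called lower and grey where not called, and the black bar is the list median. Medians run from -2.28 for G1/S and DNA replication to 4.33 for the interferon-stimulated effectors.

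Interferon pathway genes rose among the ligands, the signalling factors and the effectors. Interferons are secreted cytokines: cells that sense viral-type nucleic acid make interferon beta (IFNB1) and the lambda interferons, whose receptors act through JAK kinases on STAT factors and IRF9 to switch on effector genes. IFNB1 had 0 and 0 counts under DMSO and 36 and 37 under VXN, at least 27.2-fold higher against a floor of 3 counts over the DMSO group. IFNL1 had 0 and 2 counts against 60 and 57, a ratio of 65.5 (95% counting interval 17.7 to 547). IFNL2 and IFNL3, near-identical copies between which reads can be misassigned, had no count under DMSO, and 15 and 25, and 26 and 13, under VXN. These ligand genes, named after their values were seen, stayed under 3 CPM in every sample.

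Chemokine genes that interferon and NF-kappaB share followed: CCL5 had 1 and 0 counts under DMSO and 119 and 89 under VXN, CXCL10 0 and 0 against 20 and 18, and CXCL11 0 and 3 against 60 and 53. These 3 were also named after their values were seen. For the 7 ligand and chemokine genes the edgeR adjusted p did not exceed 2.75e-08, for CXCL10.

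Of 20 interferon receptor and STAT pathway genes 14 rose, 2 fell and 4 were not called, at a median log2 fold change of 0.46. With a fit on the HT29 libraries alone 4 fell. The transcription factor genes moved most. STAT2 stood at 33.7 and 31.99 CPM under DMSO and 86.97 and 87.1 CPM under VXN. IRF9, its DNA-binding partner, went from 4.24 and 3.76 to 38.1 and 36.2 CPM and IRF7, which amplifies interferon transcription, from 28.5 and 26.9 to 164 and 163 CPM, the former 9.27-fold and the latter 5.9-fold. The receptor chain genes moved little by comparison: IFNAR2 rose by 0.53 and IFNLR1 by 0.39 on the log2 scale, IFNGR1 fell by 0.21, and IFNAR1 had -0.05 (edgeR adjusted p = 0.477).

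Of 16 cytosolic nucleic acid sensor genes 11 rose and 3 fell. The sensors of double-stranded RNA rose strongly: IFIH1, which encodes MDA5, from 8.98 and 9.27 to 96.6 and 97.2 CPM, RIGI from 7.25 and 7.47 to 52.998 and 51.5 CPM and EIF2AK2, which encodes the kinase PKR, from 75.2 and 70.2 to 219.99 and 225 CPM. ADAR, whose product edits double-stranded RNA, went from 299 and 297 to 574 and 583 CPM. The 3 that fell were CGAS, the sensor of cytosolic DNA, by 0.22, its adaptor gene STING1 by 0.61 and the kinase gene IKBKE by 0.53 on the log2 scale. IFI16, which also binds DNA, rose from 0 and 3 counts to 110 and 105, so DNA-sensing genes went both ways. All of the 7 other genes had an edgeR adjusted p of no more than 0.0162, for CGAS.

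Of 35 interferon-stimulated effector genes 34 rose and none fell, at a median log2 fold change of 4.33, and the remaining member, IFITM2, had -0.13 (edgeR adjusted p = 0.163). With a fit on the HT29 libraries alone 1 member fell. IFI27 went from 3.26 and 2.69 to 198 and 191 CPM, OAS3 from 50.9 and 50.996 to 434 and 427 CPM, and ISG15, a ubiquitin-like modifier, from 35.2 and 36.6 to 302 and 300.01 CPM. IFIT1, whose product binds viral RNA, rose by 5.81 ± 0.087 (SE) from 2.4 to 134 CPM. The summed level of the list went from 425 and 423 CPM to 3317 and 3320.3 CPM. Among these 4 the edgeR adjusted p reached at most 1.93e-57, for IFIT1.

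The interferon-stimulated response element bound by STAT factors and IRF9 has a core of GAAA, 2 free bases and GAAA. The promoters of 3 members are shown because they hold 2 copies each in the 150 bases before the RefSeq start site (build GRCh38.p14, printed 5′ to 3′ on the gene's strand, with the matches on either strand in capitals).
IFIT1 (chr10:89392473-89392622, plus strand): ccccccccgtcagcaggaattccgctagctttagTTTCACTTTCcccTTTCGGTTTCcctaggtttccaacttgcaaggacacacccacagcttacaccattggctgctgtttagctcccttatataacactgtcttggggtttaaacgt
IFI6 (chr1:27672193-27672342, minus strand): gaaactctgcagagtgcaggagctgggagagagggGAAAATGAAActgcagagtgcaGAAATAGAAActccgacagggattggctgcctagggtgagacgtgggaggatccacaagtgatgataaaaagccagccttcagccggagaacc
ISG15 (chr1:1013347-1013496, plus strand): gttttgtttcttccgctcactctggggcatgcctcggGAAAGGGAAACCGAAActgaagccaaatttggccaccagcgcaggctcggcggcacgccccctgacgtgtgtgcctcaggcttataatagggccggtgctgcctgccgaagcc
The IFIT1 matches lie 116 to 107 and 103 to 94 bases before the start, those of IFI6 115 to 106 and 93 to 84, and those of ISG15, which overlap, 113 to 104 and 107 to 98. RefSeq promoter windows of 300 bases (250 before to 50 after the start) were on hand for 27 of the 35 effector genes. The motif was in a window of 21 of these 27 genes (77.8%), of 3.87% of tested genes with a window, and in 1255 of all 35116 windows (3.57%). A gene with several windows counts if any of them matches. Across genes of at least 4 CPM with a window, 7.05% of the 723 that rose 2-fold or more held it, 3.31% of the 1874 not called and 2.45% of the 693 that fell 2-fold or more. A match is a description of the letters and not evidence of binding.

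Antigen presentation rose with the effectors. Of 21 HLA class I pathway genes 19 rose and 1, ERAP2, fell by 0.16, at a median of 1.05. The class I gene HLA-C went from 74.9 and 76.5 to 223 and 227 CPM, and the peptide transporter genes TAP1 and TAP2 from 4.41 and 4.01 to 31.5 and 28.3 CPM and from 20.5 and 21.1 to 77.7 and 75.9 CPM. B2M, the common light chain, rose 1.77-fold. HLA class I genes are near-identical to one another and polymorphic, so reads can be misassigned among them. No edgeR adjusted p among these genes exceeded 0.00697, for ERAP2.

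Targets of NF-kappaB, the inflammatory transcription factor, gave 19 higher and 2 lower of 23, at a median of 1.601. LCN2, which encodes the iron-siderophore binding protein lipocalin 2, stood at 92.8 and 94.6 CPM under DMSO and 892 and 877 CPM under VXN, 9.44-fold higher. IL32 went from 0.783 and 0.641 to 14.3 and 16.02 CPM, the adhesion molecule gene ICAM1 from 4.66 and 3.67 to 26.4 and 24.03 CPM and the NF-kappaB subunit gene RELB from 8.08 and 8.93 to 29.9 and 28.3 CPM. Of the 12 members with a mean of at least 4 CPM 10 rose, so many of the cytokine genes on this list rose at low levels. NFKB1, the precursor of the p50 subunit, fell by 0.53 and SOD2 by 0.32. The edgeR adjusted p for these 6 was at most 2.88e-08, for SOD2.

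Antioxidant genes formed a second set that rose. NRF2, held back by KEAP1 until oxidants or electrophiles modify it, drives the genes of glutathione and thioredoxin metabolism, NADPH supply and conjugate export. Of 24 NRF2 targets tested 22 rose, 1 fell (PRDX1, by 0.43) and 1 (TALDO1, at -0.067) was not called, at a median of 1.198. TALDO1 had an edgeR adjusted p of 0.0504, and under DESeq2-type size factors 2 members of the list fell.

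By role, the thioredoxin reductase gene TXNRD1 went from 536 and 539.9 CPM to 1917 and 1933 CPM and the sulfiredoxin gene SRXN1 from 39.7 and 37.6 to 208 and 210.1 CPM. For glutathione, GCLC, the catalytic subunit of the enzyme that starts its synthesis, went from 99.6 and 102 to 375 and 386 CPM, its partner gene GCLM rose 2.7-fold and the cystine importer gene SLC7A11 2.34-fold. The conjugate exporter gene ABCC3 went from 410.5 and 408 to 1128 and 1137 CPM. For NADPH, ME1 rose 3.05-fold. The well known targets HMOX1 and NQO1 rose 4.42-fold and 1.41-fold, and NFE2L2, which encodes NRF2, and KEAP1 by 0.19 and 0.25 on the log2 scale. All of these 11 had an edgeR adjusted p of no more than 4.35e-06, for NFE2L2.

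The aldo-keto reductases, which reduce aldehydes, ketones and steroids, gave 6 higher and 2 lower of 9 tested. AKR1C1 (chr10:4963415-4983283) stood at 13.8 and 12.6 CPM under DMSO and 898 and 878 CPM under VXN, 67.3-fold higher, and AKR1C2 beside it (chr10:4987775-5018000) at 3.42 and 3.8 against 429 and 426 CPM. AKR1C3 went from 73.1 and 69.6 to 469 and 461 CPM and AKR1B10 from 139.8 and 139.6 to 511 and 532 CPM. AKR1C1 and AKR1C2 are near-identical copies, so part of their reads can be exchanged, though both lie far above their DMSO samples. The members that fell were AKR7A2 by 1.24 and AKR7A3 by 1.43.

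The ferritin subunit genes were among the most abundant transcripts to rise. Ferritin stores iron, and both subunit genes are NRF2 targets as well as under translational control by iron. FTH1, the heavy chain, went from 2710.3 and 2545 CPM to 14401 and 14656 CPM, a log2 fold change of 2.47 ± 0.028 (SE), and FTL, the light chain, from 1260.4 and 1245 to 7174 and 7016 CPM, 2.50 ± 0.029 (SE). Many processed pseudogenes resemble them. BEST1, which overlaps FTH1, moved in step, from 2589 and 2493 to 13167 and 13228 CPM, and its reads cannot be told from those of FTH1 in these unstranded counts. Of the 12 tested genes of iron handling, 5 rose and 4 fell: the transferrin receptor gene TFRC rose by 0.39, the exporter gene SLC40A1 by 0.13, and HEPH, a ferroxidase gene, fell from 26.99 and 24.7 to 8.31 and 7.25 CPM. The iron regulatory protein genes ACO1 and IREB2 fell by 0.35 and 0.34.

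Genes of the integrated stress response rose as a further set. ATF4 is translated when eIF2 alpha is phosphorylated, and it switches on amino acid synthesis and uptake, tRNA synthetases and, with CHOP (DDIT3), stress regulators. Of 37 ATF4 targets and tRNA synthetase genes 32 rose and 3 fell, at a median of 1.2002. DDIT3 went from 19.2 and 16.9 CPM under DMSO to 209 and 218 CPM under VXN, 11.8-fold, the pseudokinase gene TRIB3 from 160.1 and 149 to 873 and 862 CPM, the mTORC1 inhibitor gene DDIT4 from 71.1 and 69.9 to 430.5 and 439 CPM and the secreted stress factor gene GDF15 from 205 and 195 to 889.6 and 909 CPM. ATF4 itself rose by 0.34 and the asparagine synthetase gene ASNS by 0.64 on the log2 scale. The enzymes of serine synthesis did not move as one: PSAT1 rose by 0.63 while PHGDH fell by 0.29 and PSPH by 0.17. Among these 9 the edgeR adjusted p reached at most 0.00113, for PSPH.

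The unfolded protein response of the endoplasmic reticulum gave 19 higher and 0 lower of 20, at a median of 0.85, with CRELD2 at 0.14 (edgeR adjusted p = 0.12). HSPA5, which encodes the lumenal chaperone BiP, stood at 469 and 461 CPM under DMSO and 2129.7 and 2115 CPM under VXN, 4.56-fold higher. ERN1, the stress sensor IRE1, went from 22.7 and 24.7 to 143 and 141 CPM, and the genes of protein retrotranslocation HERPUD1 and SEL1L from 60.8 and 61.4 to 239 and 239 CPM and from 55.2 and 54.3 to 214 and 216 CPM. The disulfide isomerase genes PDIA4 and PDIA6 rose by only 0.32 and 0.14. No edgeR adjusted p among the 6 that rose exceeded 2.73e-05, for PDIA6. The list of cytosolic heat shock chaperones, which also holds the mitochondrial HSPE1, went the other way, with 2 higher and 10 lower of 17. HSPA8 fell from 2213 and 2189 to 1421 and 1447 CPM and HSP90AA1 by 0.57, with HSPA1A, the classic heat-inducible gene, lower by 0.31. HSPE1 fell by 0.88.

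One promoter for each of these 3 stress pathways is shown, with the element of the pathway in capitals: the endoplasmic reticulum stress element, CCAAT and CCACG with 9 free bases between, in HSPA5, TGATGNAA (a C/EBP-ATF4 element) in ASNS and TGACNNNGC (the antioxidant response element) in GCLM, searched on both strands.
HSPA5 (chr9:125241344-125241493, minus strand): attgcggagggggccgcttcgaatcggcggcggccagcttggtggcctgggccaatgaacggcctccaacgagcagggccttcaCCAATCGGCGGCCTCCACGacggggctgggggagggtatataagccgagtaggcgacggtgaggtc
ASNS (chr7:97872409-97872558, minus strand): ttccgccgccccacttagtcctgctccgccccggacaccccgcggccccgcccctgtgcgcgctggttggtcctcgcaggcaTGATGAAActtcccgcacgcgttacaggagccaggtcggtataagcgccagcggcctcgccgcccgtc
GCLM (chr1:93909431-93909580, minus strand): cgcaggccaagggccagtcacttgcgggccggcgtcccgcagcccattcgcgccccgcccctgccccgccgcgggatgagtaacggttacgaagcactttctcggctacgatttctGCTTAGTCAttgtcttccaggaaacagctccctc
The HSPA5 match ends 48 bases before the start, that of ASNS 61 and that of GCLM 26, the last on the opposite strand. The endoplasmic reticulum stress element was found for 7 of the 20 genes of its list, for 0.118% of tested genes with a window and in 27 of all 35116 windows (0.0769%). The ATF4 element was found for 10 of 31 genes of its list with a window (32.3%) against 3.62% of all windows and 2.88% of tested genes with one. The antioxidant element, whose short core also fits other bZIP factors, was in 7 of 18 (38.9%) against 13.3% of all windows and 18.8% of tested genes with one. Its share was 20.5% of genes that rose 2-fold or more and 17.5% of those that fell 2-fold or more. Other lists came near the NRF2 list. The antioxidant element was in 35.5% of ATF4 targets, 30% of unfolded protein response genes and 29.6% of G2/M genes with a window. It was in 25.9% of G1/S genes and of interferon effectors, so it did not mark the NRF2 list alone.

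Lysosome and autophagy genes gave 27 higher and 2 lower of 32, at a median of 0.65. SQSTM1, which encodes the autophagy receptor p62 and is a target of NRF2 too, went from 418 and 415 CPM to 3114 and 3076 CPM, 7.44-fold. The sialidase gene NEU1 went from 53.3 and 50.01 to 153 and 152 CPM, WIPI1, which acts in autophagosome formation, from 7.83 and 8.11 to 47.2 and 48.7 CPM, and the protease gene CTSD from 309 and 301 to 634 and 634 CPM. MAP1LC3B and GABARAPL1, of the ATG8 family, rose 2.3-fold and 3-fold. CTSZ and GLA fell by 0.27 and 0.19. The edgeR adjusted p for these 8 was at most 0.00566, for GLA.

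All 32 genes that act at G1/S and in DNA replication fell, at a median of -2.28, and all 32 of G2/M and mitosis, at -2.21, against 27.0% of all tested genes. The summed level of the first list went from 4006 and 3983 to 1062 and 1052 CPM and of the second from 4509.96 and 4492 to 933 and 927 CPM. Of the replicative helicase, MCM4 went from 293 and 288 CPM to 48.1 and 46.6 CPM and MCM2 from 268 and 271 to 47.9 and 48.97 CPM, with MCM5 the lowest of the list at -2.99. The ribonucleotide reductase subunit genes RRM1 and RRM2 fell 5.3-fold and 6.52-fold. CCND1, the cyclin that acts before the G1/S switch, changed least, from 164 to 142 CPM, a fall of 0.21 ± 0.036 (SE).

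Among mitotic genes TOP2A, the topoisomerase that untangles chromosomes, fell from 637 and 646 CPM to 106 and 103 CPM and the proliferation marker MKI67 from 337 and 329 to 71.5 and 72.6 CPM. TPX2, a spindle assembly factor, went from 339.5 and 335 to 72.7 and 74.1 CPM and CENPF, a kinetochore protein gene, from 238 and 245 to 41.9 and 44.8 CPM. Of 32 members the smallest change was that of CKS2, at -1.33. In bulk RNA fewer cycling cells and less of these transcripts in each cell cannot be told apart. All of the genes named for both lists had an edgeR adjusted p of no more than 7.20e-07, for CCND1.

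E2F factors bind TTTSSCGC, where S is C or G, and the MuvB complexes bind the cell cycle homology region TTTGAA. The search used the looser TTTNNCGC, so the E2F matches and shares below include letters outside that consensus. Promoters with the searched letters are shown for 2 genes of each list, with matches on either strand in capitals.
E2F1 (chr20:33686386-33686535, minus strand): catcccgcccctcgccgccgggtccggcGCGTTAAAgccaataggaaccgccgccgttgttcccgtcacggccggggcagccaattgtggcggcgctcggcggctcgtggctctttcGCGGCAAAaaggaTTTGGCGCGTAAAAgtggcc
MCM6 (chr2:135876444-135876593, minus strand): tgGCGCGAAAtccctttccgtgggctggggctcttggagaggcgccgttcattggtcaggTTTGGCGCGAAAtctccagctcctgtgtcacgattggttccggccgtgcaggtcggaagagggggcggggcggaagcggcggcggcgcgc
CCNB2 (chr15:59104996-59105145, plus strand): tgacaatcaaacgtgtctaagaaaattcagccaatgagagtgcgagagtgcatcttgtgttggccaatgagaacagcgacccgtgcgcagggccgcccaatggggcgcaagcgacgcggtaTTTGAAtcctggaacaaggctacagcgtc
PLK1 (chr16:23678739-23678888, plus strand): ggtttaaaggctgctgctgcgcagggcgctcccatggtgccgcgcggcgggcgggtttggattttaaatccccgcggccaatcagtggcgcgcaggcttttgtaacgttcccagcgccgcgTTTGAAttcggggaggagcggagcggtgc
E2F1 held 4 matches and MCM6 3, some overlapping as a forward and a reverse copy. In E2F1 not all of them fit the stricter consensus. In CCNB2 and PLK1 the single TTTGAA lies at the same distance, 29 to 24 bases before the start. E2F1, itself an E2F target, went from 60.1 to 12.6 CPM, MCM6 from 157 to 23.8 CPM, the cyclin gene CCNB2 from 170.2 to 37.9 CPM and the mitotic kinase gene PLK1 from 159.9 to 35.2 CPM. The E2F letters were found for 16 of 27 G1/S genes with a window (59.3%) and 3 of 27 G2/M genes (11.1%), and TTTGAA for 1 of 27 (3.7%) and 20 of 27 (74.1%). Among tested genes with a window the shares were 11.9% for the E2F letters, near that of the G2/M list, and 14% for TTTGAA. Among all single windows they were 6.89% and 15.2%. Of the 693 genes that fell 2-fold or more 18.9% held the E2F letters and 26.4% held TTTGAA, and of the 1874 not called 13.3% and 11.5%. These 693 include members of both lists.

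Genes of homologous recombination and the Fanconi pathway, which peak in S phase, fell in 20 of 21 cases at a median of -1.83. FANCI went from 266 and 259.8 to 67.95 and 69.96 CPM, RMI2 from 40.2 and 40.96 to 4.94 and 4.92 CPM, the helicase gene BLM from 46.6 and 49.1 to 8.61 and 9.53 CPM and RAD51AP1 from 36.3 and 39.1 to 6.3 and 5.83 CPM. BRCA1 fell by 1.39, and EME1 had -0.067 (edgeR adjusted p = 0.468).

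CDKN1A, which encodes the cyclin-dependent kinase inhibitor p21, rose from 9.6 and 10.8 CPM under DMSO to 98.04 and 96.9 CPM under VXN, 9.54-fold. TNFRSF10B, a death receptor gene that CHOP can also induce, went from 45.04 and 45.1 to 151 and 153 CPM and SESN2, also an ATF4 target, from 32.1 and 32.97 to 115 and 114 CPM. BTG2 fell from 64.3 and 61.7 to 14.3 and 14.9 CPM, FAS by 1.27 and DDB2 by 1.27, while the ubiquitin ligase gene MDM2 had -0.099 (edgeR adjusted p = 0.0777). Among 15 genes of the BCL2 family 7 rose and 3 fell. The BH3-only genes PMAIP1, BMF and BBC3 rose 3.66-fold, 2.67-fold and 2.51-fold, the survival gene BCL2L2 rose 1.9-fold and MCL1 had -0.049 (edgeR adjusted p = 0.17). BCL2 had 18 and 22 counts under DMSO and 0 and 3 under VXN.

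Of 20 tested histone genes 9 rose and 6 fell. The replication-independent variant genes H2AZ1, H2AZ2 and H3-3A fell 2.27-fold, 2.43-fold and 2.34-fold. Canonical histone transcripts mostly lack a poly(A) tail.

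Mitochondrial transcripts split by kind. The mitochondrial genome encodes 13 proteins of the respiratory chain and 2 ribosomal RNAs on long shared precursors that are cut and then decay at different rates. Both ribosomal RNAs rose: MT-RNR1 from 335 and 339.8 CPM to 3931 and 4025 CPM and MT-RNR2 from 2371 and 2432 to 16909 and 16970.0 CPM, 11.8-fold and 7.05-fold (edgeR adjusted p = 5.48e-07 and 1.55e-14, named after their values were seen). Of the 13 messenger RNAs 9 fell and 4 rose, at a median of -0.39. MT-CO2 went from 2818 and 2739 to 1096 and 1121 CPM, MT-CO1 from 5525 and 5411 to 2431 and 2461 CPM and MT-CO3 from 3038 and 2930.5 to 1400.1 and 1415 CPM, all of complex IV. Those that rose were all of complex I: MT-ND2 from 949 and 929.8 to 1849 and 1875 CPM, MT-ND3 by 0.72, MT-ND5 by 0.36 and MT-ND1 by 0.31. In t-hESC all 13 rose, at a median of 1.19, and neither ribosomal RNA was called (0.23, edgeR adjusted p = 0.159, and 0.079, edgeR adjusted p = 0.253), as the plot of mitochondrial transcripts in gene order shows. For 12 of the 13 messenger RNAs the difference between the lines was called, each lower in HT29. Nuclear copies of mitochondrial sequence can share reads with these genes.

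**Figure D4:**
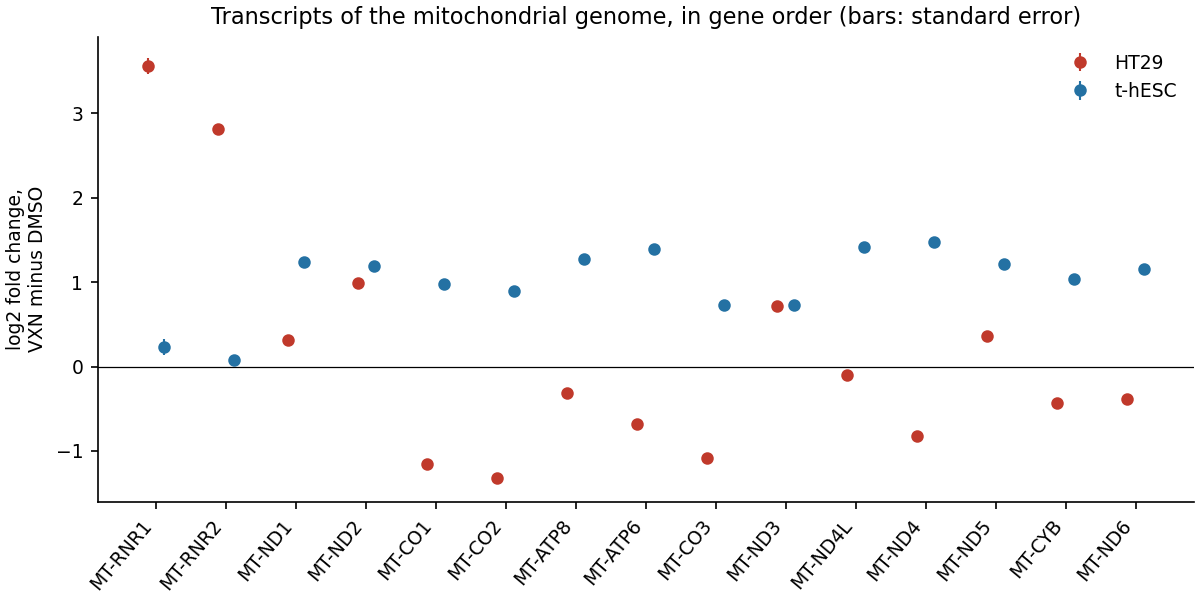
Log2 fold change, VXN minus DMSO (y axis), of the 15 mitochondrial rRNAs and mRNAs in gene order, with standard errors, in HT29 (red) and t-hESC (blue). In HT29 MT-RNR1 and MT-RNR2 lie at 3.56 and 2.82 and MT-CO1 and MT-CO2 below -1, whereas all mRNAs lie above 0 in t-hESC.

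Nuclear genes of the mitochondrion fell, with few exceptions. All 26 genes of oxidative phosphorylation fell, at a median of -0.47 and with values from -1.22 to -0.097. SDHA, the catalytic subunit of complex II, went from 165 and 166 CPM to 70.9 and 70.5 CPM, the ATP synthase subunit gene ATP5F1A from 413 and 399.8 to 220.1 and 214 CPM and UQCRC2 of complex III from 297 and 285 to 172 and 175 CPM. Of 21 mitochondrial ribosomal protein genes 19 fell, at a median of -0.46, led by MRPL11 from 76.6 and 70.1 to 34.3 and 37.5 CPM. Cytosolic ribosomal protein genes moved up instead, 27 higher and 4 lower of 32, at a median of 0.24. RPS16 went from 845 and 864 to 1307 and 1239 CPM, and the 4 that fell were RPL6, RPL22, RPL3 and RPL10A, by 0.44, 0.41, 0.33 and 0.11. Many of these genes have processed pseudogenes that could share their reads. Ribosome biogenesis and MYC targets gave 6 higher and 16 lower of 28, with FBL, the nucleolar methyltransferase gene, falling from 336 and 354 to 205 and 205 CPM and NCL, the nucleolin gene, from 1234 and 1249 to 855 and 867 CPM.

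Fuel use genes fell in part. Of 15 genes of fatty acid oxidation and PPAR targets 11 fell and 2 rose. The thiolase gene ACAA2 fell from 81.3 and 80.4 to 40.1 and 40.9 CPM and the carnitine shuttle gene CPT2 from 48.2 and 49.7 to 26.8 and 25.8 CPM, while the lipid droplet gene PLIN2 rose from 7.01 and 6.49 to 18.8 and 17.1 CPM. FABP1, the liver-type fatty acid binding protein gene, had 41 and 49 counts under DMSO and 1 and 0 under VXN. In glycolysis 13 of 20 genes fell and 6 rose: LDHA, the lactate dehydrogenase subunit gene, went from 816 and 809.9 to 326 and 324 CPM, and PGK1 and TPI1 fell by 0.65 and 0.62, but the lactate exporter gene SLC16A3 rose from 54.4 and 53.9 to 158 and 154 CPM. Of 20 hypoxia response genes 11 rose and 2 fell. The angiogenic factor gene VEGFA went from 82.2 and 84.1 to 535 and 527 CPM and NDRG1 from 43.2 and 45.1 to 338 and 344 CPM. ATF4 signalling can also raise both. P4HA2 rose from 30.7 and 29.4 to 114 and 115 CPM. CA9, a hypoxia-inducible carbonic anhydrase gene and 1 of the 2 that fell, went from 74.3 and 77.7 to 7.48 and 9.89 CPM. The cause of these changes was not tested. Among the genes named by sample in this paragraph the edgeR adjusted p reached at most 1.33e-12, for FABP1.

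Lipid synthesis moved modestly. Of 25 genes of cholesterol synthesis and uptake 14 rose and 9 fell, at a median of 0.18. The SREBP regulator gene INSIG1 went from 65.1 and 67.5 to 123 and 119 CPM and the sterol carrier gene STARD4 from 33.8 and 36.1 to 63.97 and 65.6 CPM, while ACAT2, which makes the first intermediate of the pathway, fell from 74.9 and 75.9 to 35.2 and 37.01 CPM. In t-hESC 24 of the 25 rose, at a median of 0.88, and for 23 the difference between the lines was called with HT29 lower. In fatty acid synthesis 11 of 16 genes rose and 3 fell: the desaturase gene SCD went from 855 and 841 to 1350.3 and 1363 CPM and the acetyl-CoA synthetase gene ACSS2 from 13.1 and 12.1 to 48.2 and 48.5 CPM. Among 8 tested LXR targets the cholesterol exporter genes parted, with ABCG1 rising from 10.8 and 12.4 to 40.1 and 41.1 CPM and ABCA1 falling from 6.88 and 8.37 to 2.89 and 3.3 CPM.

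Genes of intestinal identity changed in both directions. Wnt signalling, driven here by mutant APC, keeps crypt cells in a stem-like state. Of 23 Wnt targets and stem cell genes 10 fell and 5 rose (3 rose with DESeq2). LGR5 and DKK1 (above) fell most, SOX9, a crypt transcription factor gene, fell from 179 and 182 to 115 and 119.7 CPM, MYC by 0.49 and SP5 by 1.87. AXIN2 and RNF43, feedback inhibitors that are direct Wnt targets, rose by 0.65 and 0.39. So LGR5 and AXIN2, both read as Wnt targets, went opposite ways. No edgeR adjusted p among these genes exceeded 2.54e-15, for RNF43.

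Surface and enzyme markers used for colorectal cancer stem cells gave 9 lower and 5 higher of 15 (3 higher with DESeq2). CD24 went from 1319 and 1332 CPM to 374 and 389 CPM, the retinaldehyde dehydrogenase gene ALDH1A1 from 683 and 678 to 195 and 185 CPM, the hyaluronan receptor gene CD44 from 543 and 544 to 190.4 and 184 CPM and PROM1, which encodes CD133, from 137 and 137 to 66.6 and 65.2 CPM. Both samples of each group lay within a few percent of each other in these 4 genes. ALDH3A1 and ALCAM rose by 0.75 and 0.62.

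Mucin and goblet cell genes split, with 7 higher and 8 lower of 19. The gel-forming mucin gene MUC5AC rose from 75.5 and 77.1 to 328 and 339.8 CPM and the membrane mucin gene MUC20 from 28.9 and 30.1 to 114 and 117 CPM, while MUC13 fell from 84.9 and 83.2 to 38.4 and 37.3 CPM and the secreted lectin gene REG4 from 107 and 102 to 9.75 and 9.68 CPM. ATOH1, the transcription factor gene that commits intestinal cells to secretory fates, had 88 and 87 counts under DMSO and 1 and 0 under VXN, a ratio of 156 (95% counting interval 27.7 to 6210). TFF3 and SPINK4, goblet cell products, also fell, SPINK4 from 30 and 36 counts to 2 and 0, and the colonic mucin gene MUC2 was at 1.85 and 1.75 CPM under DMSO and 1.71 and 1.77 CPM under VXN (edgeR adjusted p = 0.91). The edgeR adjusted p for the 7 changed genes was at most 2.34e-09, for SPINK4.

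Of 19 enterocyte and brush border genes 8 rose and 7 fell. Those that rose included KRT20, a keratin of differentiated colonocytes, from 247 and 252 CPM to 700.2 and 707 CPM, the adhesion genes CEACAM5 from 5.36 and 5.72 to 48.3 and 47.8 CPM and CEACAM6 from 16.8 and 16.2 to 79.5 and 84.7 CPM, and the brush border protocadherin gene CDHR5 from 9.27 and 9.7 to 58.3 and 56.1 CPM. CEACAM genes resemble one another, so some reads can be shared. VIL1, the villin gene, fell from 181 and 184 to 96.1 and 94.1 CPM, the transcription factor gene HNF4A from 76.1 and 75.4 to 31.6 and 31.9 CPM and the carbonic anhydrase gene CA2 by 0.95. Thus a marker of differentiation such as KRT20 and one such as VIL1 did not move together. Tight junction and adhesion genes gave 12 higher and 7 lower of 24, with CLDN12 and CLDN7 rising 1.93-fold and 1.65-fold beside the fall of CLDN2. Among 13 keratin genes 8 rose and 5 fell, the latter including KRT8, from 5382 and 5464 to 3572 and 3566 CPM, and KRT18, from 3233 and 3213 to 2198 and 2241 CPM. In the Notch pathway 5 of 15 genes rose and 7 fell, with the ligand gene JAG1 going from 29.5 and 29.9 to 186 and 188 CPM and the modifier gene LFNG from 110.1 and 112 to 47.01 and 48.4 CPM.

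Genes that write the histone mark named in the series title fell in part. G9a (EHMT2) and GLP (EHMT1) dimethylate histone H3 at lysine 9, SUV39H1 and SUV39H2 trimethylate it, and HP1 proteins (CBX1, CBX3 and CBX5) bind the mark. EHMT2 went from 104 and 104 CPM to 67.3 and 63.3 CPM, a fall of 0.67 ± 0.044 on the log2 scale (SE). EHMT1 stood at 84.9 and 86.9 CPM under DMSO and 81.99 and 80.1 CPM under VXN, a log2 fold change of -0.083 ± 0.042 (SE, edgeR adjusted p = 0.0879). Scaling by DESeq2-type size factors made EHMT1 a lower call (edgeR adjusted p = 0.012). So did the HT29 libraries alone (-0.138, edgeR adjusted p = 4.5e-04) and no count filter (-0.119, edgeR adjusted p = 0.034). Without t-hESC BIX replicate 2 its log2 fold change was -0.095. Of the 14 methyltransferase and G9a complex genes 7 fell and 3 rose (1 rose with DESeq2). SUV39H1 fell from 29.9 and 31.2 to 6.73 and 7.96 CPM, SUV39H2 from 29.96 and 31.6 to 11.9 and 11.6 CPM and MECOM from 107 and 106 to 50.4 and 47.6 CPM. All of EHMT2, SUV39H1, SUV39H2 and MECOM had an edgeR adjusted p of no more than 1.47e-21, for EHMT2.

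Of 17 genes of HP1 proteins and DNA methylation 10 fell and 4 rose (1 rose with DESeq2). UHRF1, which recruits the maintenance methyltransferase to replicated DNA, went from 90.5 and 94.005 to 16.05 and 16.1 CPM, DNMT1 from 141 and 142 to 57.2 and 53.4 CPM, CBX1 from 213 and 218 to 85.3 and 85.4 CPM and CBX3 from 471 and 467 to 253 and 240.3 CPM. SUV39H1, UHRF1 and DNMT1 are also known as genes of S phase, and the cell cycle lists fell beside them. What part the fall in cell cycle genes had in these values was not tested. Of 12 H3K9 demethylase genes 7 rose and 2 fell, with KDM7A going from 18.1 and 16.02 to 48.4 and 46.6 CPM and KDM1A from 195 and 191 to 125 and 126 CPM. Polycomb genes gave 9 higher and 11 lower of 25, and EZH2 fell by 0.50. Germline genes that chromatin keeps silent were mostly too low to test: 8 of 25 were tested, none was called higher, and TDRKH and STK31 were called lower. TDRKH stood at 28.97 and 26.4 against 23.8 and 23.5 CPM, a call lost without DMSO replicate 1 (log2 fold change -0.16, edgeR adjusted p = 0.101). STK31 stood at 0.659 and 1.196 against 0.262 and 0.558 CPM, a call lost without DMSO replicate 2 or VXN replicate 1 and with DESeq2.

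Growth signalling genes changed in both directions. Of 27 immediate early genes 17 rose and 5 fell: the stress-responsive ATF3 went from 15.04 and 15.1 CPM to 147.97 and 155 CPM and KLF4, a factor of differentiated epithelium, from 17.2 and 16.02 to 96.4 and 95.8 CPM, while FOS fell by 0.68. ERK feedback genes gave 7 higher and 7 lower of 16, with DUSP5, an ERK phosphatase gene, going from 10.8 and 9.78 to 96.4 and 98.6 CPM and DUSP6, another, falling by 0.38. Of 11 EGFR family genes 9 rose and 2 fell: the ligand genes AREG and EREG rose 2.1-fold and 2.12-fold and the receptor genes ERBB2 and ERBB3 fell 1.65-fold and 1.64-fold. In the polyamine list 7 of 12 fell and 3 rose, with ODC1, which starts synthesis, going from 450.3 and 437 to 243 and 249.7 CPM and SAT1, which starts breakdown, from 80.8 and 82.9 to 240.3 and 237 CPM. BMP4 fell from 299 and 293 to 118 and 118 CPM and ID2 from 49.6 and 51.8 to 16.2 and 15.2 CPM, in a list of 19 TGF-beta and BMP genes of which 10 rose and 6 fell. Of 18 retinoic acid genes 10 rose and 3 fell, with the retinol transporter gene STRA6 going from 2.97 and 4.19 to 18.4 and 20.3 CPM. MT1E fell from 72.9 and 77.2 to 26.4 and 24.6 CPM among 11 metallothionein and zinc transporter genes, of which 4 fell and 2 rose. Of 15 YAP and TEAD targets 8 fell and 5 rose (3 rose with DESeq2).

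Xenobiotic metabolism genes gave 12 higher and 10 lower of 27. CYP3A5 went from 97.3 and 92.1 CPM to 248.9 and 253 CPM and TIPARP, a target of the aryl hydrocarbon receptor, from 104 and 104 to 208 and 201 CPM. UGT2B15, a steroid glucuronosyltransferase gene, had 45 and 51 counts under DMSO and 0 and 0 under VXN, at least 28.6-fold lower against the floor of 3 counts over the VXN group.

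Matrix and secreted factor genes rose, many of them at low levels. Of 25 collagen and basement membrane genes 19 rose and 2 fell, and of the 13 with at least 4 CPM 9 rose and 2 fell. COL16A1 went from 18.7 and 19.7 CPM to 169 and 169.9 CPM, the laminin genes LAMA3 from 33.8 and 33.7 to 99.1 and 100.5 CPM and LAMC1 from 60.7 and 60.5 to 117 and 116 CPM, and HSPG2, the perlecan gene, fell from 389.8 and 397 to 221 and 225 CPM. Of 21 genes of epithelial mesenchymal transition 12 rose and 3 fell, and of the 7 with at least 4 CPM 4 rose and 3 fell. Those that rose include LAMB3, from 100.1 and 98.1 to 325 and 328 CPM, TNC, from 1.195 and 0.811 to 15.7 and 14.9 CPM, and the urokinase receptor gene PLAUR, from 28.2 and 27.6 to 87.8 and 83.9 CPM. Of 18 senescence-associated secreted factor genes 13 rose and 1 fell, among them SERPINE2, from 10.2 and 10.5 to 41.6 and 43.9 CPM. Fibroblast markers were near the floor: 8 of 12 were tested, they summed to 4.99 and 3.54 CPM under DMSO and 9.4 and 7.5 CPM under VXN, and POSTN was at 0 in all 4 samples. Of the 12 tested pluripotency markers 3 rose, 1 fell and 8 were not called, and their sums, given above, overlapped between the groups. The markers under 2 CPM in every HT29 sample, a subset chosen after their values were seen, summed to 0.33 and 0.641 CPM under DMSO and 1.22 and 3.5 CPM under VXN, or 0.0109 to 0.115% of their level in t-hESC, and the second VXN sample was the highest. If a rise of up to 0.2% of the highest t-hESC group level is set aside, 47 of the 7418 higher calls drop out, none of them a gene of at least 4 CPM, with LIN28A, DPPA4, THY1 and KDR among them. No call of the collagen and basement membrane list was among those set aside at that threshold. What part larger traces have in the low collagen values was not tested.

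The changes in HT29 had a wider spread than those in t-hESC, and many effects differed between the lines. Over the 11279 genes of at least 4 CPM in both lines, the log2 fold changes had an SD of 0.742 in HT29 and 0.255 in t-hESC, the median size was 0.37 against 0.144, and they correlated across genes at r = 0.328 (Spearman 0.38), where genes share the libraries of each line and are not independent. Called in both lines were 4056 genes, 3074 in the same direction and 982 in opposite ones. In t-hESC 14.5% of tested genes were called higher and 14.6% lower. The difference of the effects was called for 9716 genes (43.2%), 5156 higher in HT29 (22.9%) and 4560 lower (20.3%). The plot of both lines shows where the lists part.

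**Figure D5:**
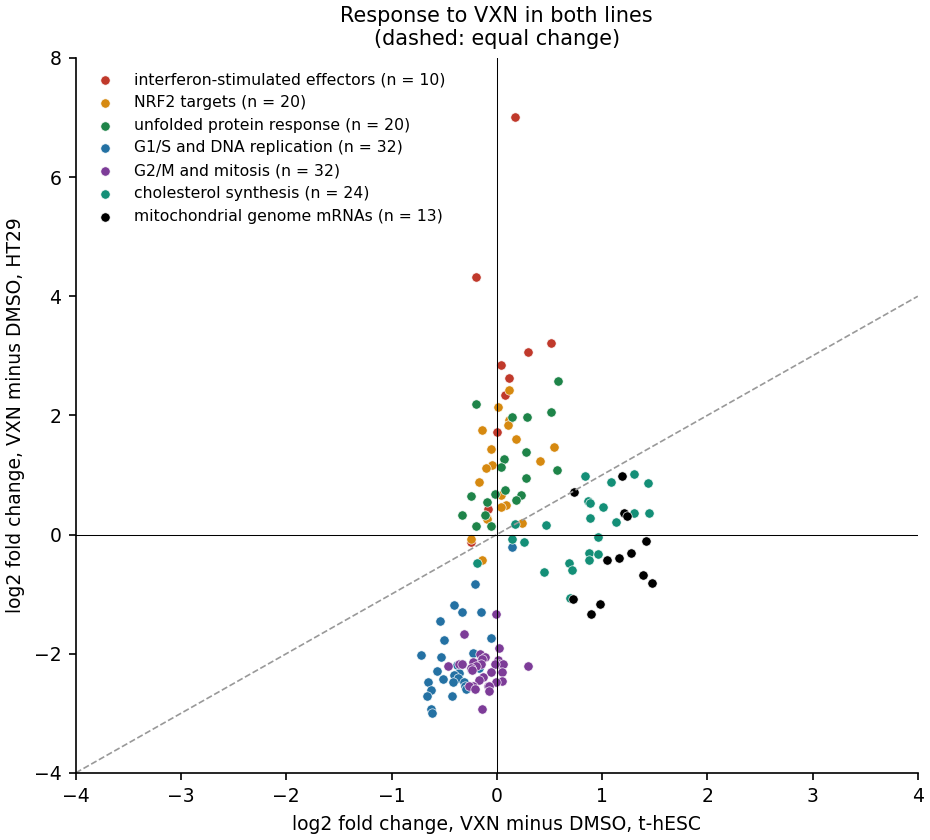
Members of 7 lists with at least 4 CPM in both lines, with the log2 fold change, VXN minus DMSO, in t-hESC on the x axis and in HT29 on the y axis, and a dashed line at equal change. Stress and interferon genes lie along the vertical axis up to 7.001 for IFI6, cell cycle genes below 0 in HT29 near 0 in t-hESC, and mitochondrial mRNAs to the right of 0.

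Of the interferon effectors 33 of 35 had a difference called higher in HT29, and for NRF2 targets 21 of 24, for ATF4 targets 30 of 37 and for the unfolded protein response 20 of 20. All 32 members of each cell cycle list had a difference called lower in HT29. In t-hESC the G1/S list fell too, in 29 of 32 genes at a median of -0.37. Of the G2/M list 16 of 32 fell there and 1 rose, at a median of -0.13. That 1 was MKI67, which rose by 0.30 ± 0.039 (SE) and fell in HT29, a difference of -2.51 ± 0.054 (edgeR adjusted p = 4.13e-47). HSPA5 fell by 0.19 in t-hESC (edgeR adjusted p = 2.01e-07) against its rise in HT29, and DDIT4 likewise, by 0.27. More members of their lists rose than fell there: 9 against 4 of 20 for the unfolded protein response and 15 against 7 of 37 for ATF4 targets. GDF15 rose in both lines, by 2.17 in HT29 and 2.15 in t-hESC, a difference of 0.014 ± 0.088 (SE, edgeR adjusted p = 0.974). SCD also rose in both, by 0.68 and 0.66, a difference of 0.021 ± 0.039 (SE, edgeR adjusted p = 0.737).

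By the size of the difference among genes of at least 4 CPM in both lines, IFI6 led, followed by CLGN, a chaperone gene of the endoplasmic reticulum best known from testis, at 0.783 and 0.982 CPM under DMSO and 48.1 and 48.4 CPM under VXN in HT29. UNC5B, a netrin receptor gene, went from 2.72 and 3.63 to 164 and 165 CPM, MAP2, a neuronal microtubule protein gene, from 1.24 and 1.37 to 32.7 and 32.6 CPM and SLFN5 from 19.3 and 19.6 to 323 and 317 CPM. DDX60, KCP and REC8 rose 20.1-fold, 12.02-fold and 15.8-fold in HT29. At the other end were CD200, C2orf72 and FAM111B, the endotoxin receptor gene TLR4, which fell from 8.24 and 8.67 to 3.1 and 2.59 CPM in HT29 and rose by 2.39 on the log2 scale in t-hESC, and LPAR6, which fell by 2.15 in HT29 and rose by 1.30. SLC12A2, the sodium, potassium and chloride cotransporter gene of epithelial secretion, fell from 859 and 865 to 91.6 and 93.3 CPM in HT29 and had a log2 fold change of 0.17 in t-hESC (edgeR adjusted p = 0.15). PHLDB2 and CENPI fell 9.58-fold and 6.3-fold in HT29. The differences of these 16 genes ran from -4.89 for CD200 to 6.83 for IFI6, with edgeR adjusted p of at most 1.42e-18, for C2orf72.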

How the data were processed

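Total RNA from 4 HT29 and 6 t-hESC libraries was sequenced with an unstranded kit, per the labels' protocols. The whole-number counts per gene were deposited by the authors without normalization, for 60651 genes and 1181 repeat families. Tools named in the submitters' processing notes are STAR, DESeq2 1.34.0, FastQC 0.11.9 and fastp 0.20.1, with GRCh38 (hg38) as build. No source used here gives the read counter. The log2 fold changes and p-values of the authors' deposited table were used only to count shared calls, and whether those fold changes were shrunken is not stated. Another 4 columns of the count table matched no sample and were not used. Repeat families and 44 rows of the Y chromosome identical to X rows were left out of the fit.

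Counts of all 10 libraries, t-hESC treated with BIX included, were fitted as 5 groups with edgeR 4.0.16 in R 4.3.3 (limma 3.58.1), using TMM scaling, a minimum count of 10 and robust quasi-likelihood dispersions. P-values were adjusted over all tested genes by the Benjamini-Hochberg method at 0.05. The SE is the log2 fold change over the square root of F. CPM used the scaled library sizes. The 4 HT29 libraries hold 21133853 to 24487352 counts, so a floor of 3 counts is 0.124 to 0.152 CPM on the scaled sizes. Intervals for ratios of 1 to 3 counts are exact 95% intervals and cover counting error only. The fit was tested on simulated data with known changes.

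Named genes are the 15 that rose most and the 15 that fell most on the log2 scale (called, with a symbol, averaging 4 CPM or more, groups not overlapping), in each list the 4 or fewer members of smallest p, EHMT1 and EHMT2, the 8 highest and 8 lowest differences between the lines, and defining markers. Other list members, the interferon and chemokine genes, BEST1, MT-RNR1, MT-RNR2 and the 10 genes with a promoter shown were chosen after their values were seen. Some genes that the rule selects are not reported here. The lists and members were chosen with earlier results of these data known. Promoters come from RefSeq, GRCh38.p14. Alternatives were other scalings and count filters, DESeq2 1.42.0, a fold threshold of 1.2, the HT29 libraries alone, a replicate block, each library left out and, chosen after seeing the data, rises that traces of t-hESC could cover set aside.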

Additional observations from a re-analysis of the deposited data

Results flagged for a closer look

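Reads assigned to repeat families, which no comparison used, made up 5.64% of counts on average in the VXN samples and 4.28% in the DMSO samples of HT29. These are shares of all counts, and no test across families was made.

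The effect of VXN differed between HT29 and t-hESC, by the test of the difference, and was called in opposite directions in 982 of the 11279 genes of at least 4 CPM in both lines. Among named genes the log2 difference, HT29 minus t-hESC, was 3.67 for COL16A1, 2.89 for DDIT4, 2.69 for STRA6, 2.39 for HSPA5 and 2.03 for SLC16A3, which rose in HT29 and fell in t-hESC. It was -2.51 for MKI67, -2.43 for BTG2, -2.22 for MT-CO2 and -2.14 for MT-CO1, which fell in HT29 and rose in t-hESC. The largest edgeR adjusted p of these 9 differences was 2.09e-28, for STRA6. With 2 samples a group no single sample could be checked against the others of its group.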

How the results depend on the processing

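The counts of called genes stayed within 1.5 times of the reported ones under all alternatives run. For HT29 they ran from 9676 with a fold threshold of 1.2 to 13772, and DESeq2 called 10939 (5583 higher, 5356 lower). Leaving out 1 library at a time gave 12197 to 13772 called genes, 4204 to 4611 at 2-fold or more, and 8704 to 9891 differences between the lines. With HT29 libraries alone 6893 rose and 6789 fell. Deviations of same-numbered samples were uncorrelated across genes (r = -0.0049). As replicates differed little beyond counting error, this cannot tell whether same-numbered samples were paired. A replicate block gave 13340 called genes (7339 higher, 6001 lower) and 9533 differences. None of the 291 genes followed reversed under an alternative. Genes near the floor changed their call when 1 library was left out, DPPA4, KDR and THY1 without VXN replicate 2. The cause was not tested. Among lists, small minority counts moved: genes called lower among HLA class I members went from 1 to 0 without DMSO replicate 2 or VXN replicate 2, those among lysosome genes from 2 to 1, and those in the BCL2 family from 3 to 5 with the HT29 libraries alone. Several list medians changed sign under some settings, among them those of the BCL2, ferritin, ERK, enterocyte and Notch lists, and that of the endothelial markers went from -0.84 to 2.36 at a minimum count of 50. Genes under about 0.152 CPM lie at the limit of the depth.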
